A study of Mus musculus with 13 samples.

Results

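The microRNAs (miRNAs) described here are 8 mature forms that are best known from white blood cells, measured in whole primary neuroblastomas of mice. They were taken by name from the scanner files, as the non-control spots of mmu-miR-142-3p, mmu-miR-142-5p, mmu-miR-223-3p, mmu-miR-150-5p, mmu-miR-155-5p, mmu-miR-146a-5p, mmu-miR-146b-5p and mmu-miR-342-3p (mmu- stands for mouse and is left out below), and they make up 8 of the 1079 mouse miRNAs on the array. All tumours came from TH-MYCN mice, in which the human MYCN oncogene is driven by the tyrosine hydroxylase promoter in sympathetic cells. The tumours were primary abdominal neuroblastomas. They fell into 7 labelled as deficient in caspase-8, from mice whose disease had spread to the bone marrow, and 6 with wild-type caspase-8 whose marrow was free of it. Caspase-8 is a protease that starts death receptor apoptosis. Genotype and metastasis changed together and cannot be told apart. The sources used here do not state whether caspase-8 was lost in the leukocytes as well as in the tumour cells, nor the age of the mice. Each tumour was hybridised to 1 single-colour Agilent array.

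Leukocytes enter solid tumours from the blood, and RNA of a whole tumour therefore holds RNA of T cells, B cells, macrophages and neutrophils beside that of the tumour cells. Some miRNAs are made almost only in blood cells and can be read as traces of them. miR-142 is made in nearly all blood cell lineages, and both strands of its hairpin are used. miR-223 is abundant in neutrophils and monocytes, and miR-150 is abundant in mature lymphocytes. miR-155 and the miR-146 pair are switched on by NF-kappaB and other signals of immune activation, and miR-146 damps that signal by repressing Traf6 and Irak1. miR-342 is encoded in Evl and is enriched in lymphoid and dendritic cells, but is also made in neurons.

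The seed, bases 2 to 8 of the mature strand, decides which transcripts a miRNA binds and separates the forms from each other. The mature sequences below are those of RefSeq (GRCm38.p6), with the seed in capitals. The RefSeq table used here gave sequences for 7 of the 8 forms, and names the miR-142 strands miR-142a-3p and miR-142a-5p.
miR-142-3p: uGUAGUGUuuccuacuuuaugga
miR-142-5p: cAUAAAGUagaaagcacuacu
miR-223-3p: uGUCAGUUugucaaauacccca
miR-155-5p: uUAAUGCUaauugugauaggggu
miR-146a-5p: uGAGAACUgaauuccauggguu
miR-146b-5p: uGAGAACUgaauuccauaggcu
miR-342-3p: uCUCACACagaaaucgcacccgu

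miR-146a-5p and miR-146b-5p share the seed GAGAACU, and each of the other 5 has a seed of its own. The miR-146 forms come from different loci, Mir146 at chr11:43374435-43374456 on the minus strand and Mir146b at chr19:46342790-46342811 on the plus strand (GRCm38.p6). They differ at 2 of 22 bases, written from miR-146a-5p to miR-146b-5p as G18A and U21C and counted from the 5′ end. In capitals at the differing bases they read as follows, since the array had to tell them apart near the 3′ end.
miR-146a-5p: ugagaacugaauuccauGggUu
miR-146b-5p: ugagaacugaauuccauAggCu

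Both miR-142 strands are cut from 1 hairpin, shown here because its strands are compared below. It lies at chr11:87756864-87756927 on the plus strand (GRCm38.p6), overlapping Mir142b and between the protein-coding neighbours Supt4a and Tspoap1. The mature strands are in capitals, miR-142-5p first, with 15 bases between them.
Mir142 hairpin: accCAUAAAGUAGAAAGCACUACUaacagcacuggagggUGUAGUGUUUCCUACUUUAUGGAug

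Mir223 is within F630028O10Rik on chromosome X and Mir155 within Mir155hg, its host transcript, on chromosome 16. Mir342 is within Evl on chromosome 12.

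Levels are scanner intensities divided by a 75th percentile of their array and brought back to the arrays' mean brightness, and tests used their log2 values. A miRNA was called detected by the mark of the scanner software, and the 419 mouse miRNAs detected on at least 6 of the 13 arrays were tested. Of the 8 leukocyte forms 6 were tested. miR-150-5p and miR-146b-5p were detected in 5 tumours each and were not. Between 338 and 469 mouse miRNAs were detected per tumour. The tissue label was checked with 5 miRNAs made in neurons or neuroendocrine cells. miR-124-3p, miR-9-5p, miR-375-3p and miR-7a-5p were detected in every tumour, and miR-129-5p in 6 of 7 deficient and 6 of 6 wild-type tumours. The liver miRNA miR-122-5p was detected in 1 of 7 deficient and 0 of 6 wild-type tumours. Of the kidney and gut pair, miR-192-5p was detected in 5 of 7 deficient and 3 of 6 wild-type tumours and miR-194-5p in 4 of 7 deficient and 2 of 6 wild-type tumours. The muscle miRNAs miR-1a-3p, miR-133a-3p and miR-133b-3p were far above the other tumours in deficient replicates 3 and 4 and wild-type replicate 1, where miR-1a-3p was at 1739 and 4235 in the deficient and 1688 in the wild-type tumour, against at most 183 in the other 10. The arrays lay on 2 slides, with 5 deficient and 2 wild-type tumours on slide 1 and 2 deficient and 4 wild-type tumours on slide 2.

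The pan-leukocyte miR-142-3p was measured in all 13 tumours and spanned 10.2-fold. Its scaled intensity had a lowest value of 384, a median of 580 and a highest value of 2428 in the 7 deficient tumours, against 290, 721 and 2956.5 in the 6 wild-type tumours. Deficient replicate 1 and wild-type replicate 5 were the highest, and the groups overlapped over most of their range. The log2 level was 9.65 ± 0.95 (SD, n = 7) in deficient and 9.58 ± 1.15 (SD, n = 6) in wild-type tumours. The difference, deficient minus wild type, was 0.07 (SE 0.53, 95% interval −1.07 to 1.21, limma adjusted p = 0.989). In whole tumour RNA, fewer leukocytes and less of a miRNA per leukocyte cannot be told apart.

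miR-142-5p, the other strand, was detected in 7 of 7 deficient and 5 of 6 wild-type tumours. It ran from 64.0 through a median of 90.1 to 424 in deficient tumours, against 43.8, 126 and 577 in wild-type tumours. The same tumours were highest as for miR-142-3p, and wild-type replicate 2, where the scanner software did not mark it as detected, was lowest. The difference was −0.11 (SE 0.57, 95% interval −1.33 to 1.12, limma adjusted p = 0.972). The log2 distance between the 2 strands was 2.65 ± 0.16 (SD, n = 7) in deficient and 2.48 ± 0.21 (SD, n = 6) in wild-type tumours. Its spread over the 13 tumours, an SD of 0.20, was small beside that of either strand, 1.00 for miR-142-3p and 1.08 for miR-142-5p.

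The myeloid miR-223-3p varied less, by 3.73-fold over the 13 tumours. In deficient tumours it ran from 230 through a median of 509 to 786, against 283, 519 and 857 in wild-type tumours. Deficient replicate 1 and wild-type replicate 5 were again the highest of their groups. The log2 difference was −0.02 (SE 0.34, 95% interval −0.74 to 0.70, limma adjusted p = 0.995).

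The lymphoid miR-150-5p was detected in 3 of 7 deficient and 2 of 6 wild-type tumours. Its scaled intensities where detected were 329 in deficient replicate 1, 80.7 in deficient replicate 5 and 31.1 in deficient replicate 6, against 204 in wild-type replicate 5 and 26.9 in wild-type replicate 4. In the other 8 tumours it lay below the floor of 17.2, where values have no order. The 2 tumours with the highest miR-142-3p thus also had the highest miR-150-5p. With no filter on detection and the low values at the floor, its log2 difference was 0.35 (SE 0.85, limma adjusted p = 1).

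**Figure D1:**
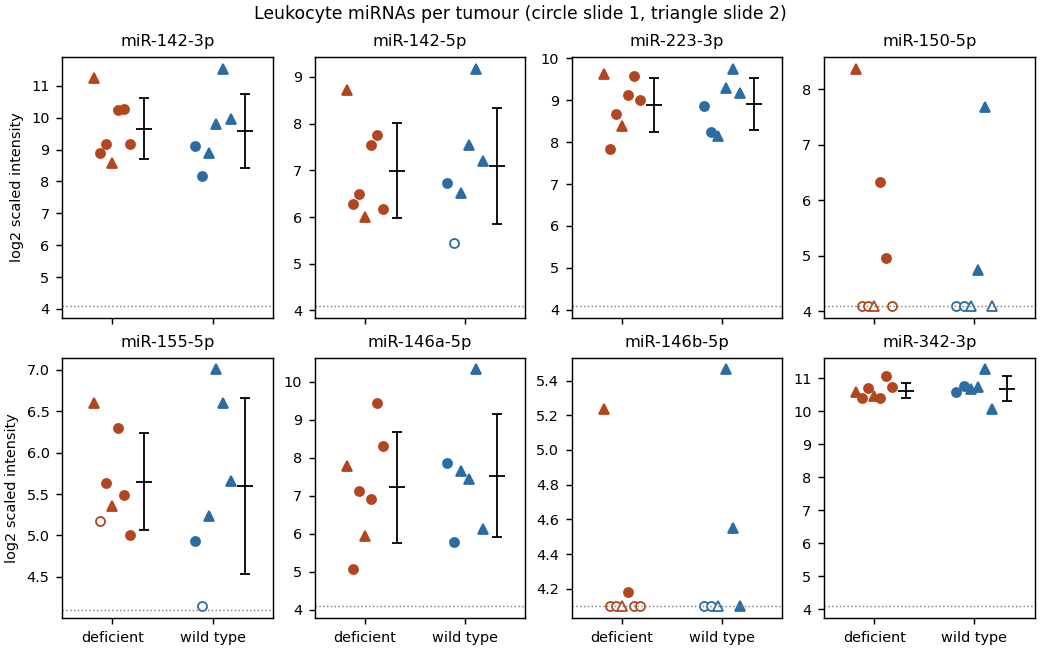
Log2 scaled intensity of the 8 leukocyte miRNAs in each tumour, deficient left and wild type right. Filled symbols were detected and open ones were not, circles lie on slide 1 and triangles on slide 2, the dotted line is the floor at 4.10, and bars give mean ± SD for the 6 forms with no value at the floor. The groups overlap in all 8 panels.

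Of the forms induced by immune signals, miR-155-5p was detected in 6 of 7 deficient and 5 of 6 wild-type tumours. It ran from 32.1 through 44.9 to 97.0 in deficient tumours, against 17.7, 44.2 and 129 in wild-type tumours. Its highest tumour was wild-type replicate 4, and deficient replicate 1 and wild-type replicate 5 followed. The log2 difference was 0.05 (SE 0.43, 95% interval −0.88 to 0.98, limma adjusted p = 0.989). Its 2 probes, taken singly, gave −0.03 and −0.16, and lay at the floor in 5 tumours and in 1 tumour.

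miR-146a-5p was detected in all 13 tumours and had the widest span of the 6 tested forms, 38.0-fold. It ran from 33.9 through 139 to 697 in deficient tumours, against 55.5, 189 and 1287 in wild-type tumours. Of its 2 probes, 1 lay at the floor in 5 tumours, where the intensity rests mainly on the other probe. Wild-type replicate 5 and deficient replicate 6 were highest, and deficient replicate 2 was lowest. The log2 level was 7.23 ± 1.46 (SD, n = 7) in deficient and 7.54 ± 1.61 (SD, n = 6) in wild-type tumours, a difference of −0.31 (SE 0.77, 95% interval −1.95 to 1.34, limma adjusted p = 0.915).

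miR-146b-5p was detected in 2 of 7 deficient and 3 of 6 wild-type tumours. Where detected it was at 37.7 and 18.2 in deficient replicates 1 and 5, against 44.1, 23.5 and 16.3 in wild-type replicates 4, 5 and 6, the last of them just below the floor. Its pattern over tumours differed in part from that of the sister form, as deficient replicate 6 had a miR-146a-5p intensity of 697 and a miR-146b-5p intensity of 8.44, below the floor. The miR-146b-5p signal thus did not follow the level of its near-identical sister there. It came from 1 of the 2 probes, since the other was at the floor in all 13 tumours.

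miR-342-3p was the steadiest of the 6 tested forms, with a span of 2.30-fold. It ran from 1363 through 1532 to 2143 in deficient tumours, against 1080, 1675 and 2480 in wild-type tumours. Wild-type replicate 5 held the highest value and wild-type replicate 6 the lowest. The log2 difference was −0.06 (SE 0.20, 95% interval −0.48 to 0.36, limma adjusted p = 0.959). Its SD over the 13 tumours was 0.30, at percentile 14.1 of the 419 tested miRNAs, whereas that of miR-146a-5p, 1.47, was at percentile 97.6. The SDs of miR-142-5p, miR-142-3p, miR-155-5p and miR-223-3p were at percentiles 87.1, 83.1, 71.1 and 57.5.

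Of the 6 tested forms 0 passed an adjusted p of 0.05 in either direction by limma, and 0 had an unadjusted p under 0.05. Over all 419 miRNAs 0 passed, or 0.0%, and 16 had an unadjusted p under 0.05, or 3.82%. All 6 tested forms overlapped between the groups, where 0.239% of the 419 tested miRNAs did not. The untested miR-150-5p and miR-146b-5p held values at the floor in both groups, which alone makes the groups overlap. The median difference of the 6 forms was −0.04 with 2 higher and 4 lower means in deficient tumours, beside a median of 0.04 with 227 higher and 192 lower means over all tested miRNAs. The median absolute difference was 0.07 for the 6 forms and 0.24 over all tested miRNAs, while the median SD over the tumours was 0.90 and 0.53. The 95% intervals leave room for sizeable differences: they reach from 0.477-fold to 2.32-fold for miR-142-3p, from 0.599-fold to 1.63-fold for miR-223-3p and from 0.259-fold to 2.52-fold for miR-146a-5p.

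The slides held the groups unequally, and the differences changed when slide entered the fit. Leaving out 1 tumour at a time also changed them, giving −0.207 to 0.463 for miR-142-3p. The part of slide in these changes was not tested. With slide as a block, miR-142-3p differed by 0.40, miR-142-5p by 0.28, miR-155-5p by 0.43 and miR-223-3p by 0.11, and 0 of the 6 tested forms passed (limma adjusted p of 0.877, 0.935, 0.844 and 0.949 for these 4). In that fit 0.0% of the 419 tested miRNAs passed, and 2.86% had an unadjusted p under 0.05, with 0 of the 6 forms among them. Within slide 1, where only 2 tumours were wild type, miR-142-3p differed by 0.90 and miR-155-5p by 0.98 (limma adjusted p of 0.718 and 0.545). Within slide 2, where only 2 tumours were deficient, they differed by −0.13 and −0.15 (limma adjusted p = 0.976 for both). miR-146a-5p differed by 0.55 within slide 1 and by −1.03 within slide 2, and miR-342-3p by −0.01 within slide 1 and −0.16 within slide 2.

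**Figure D2:**
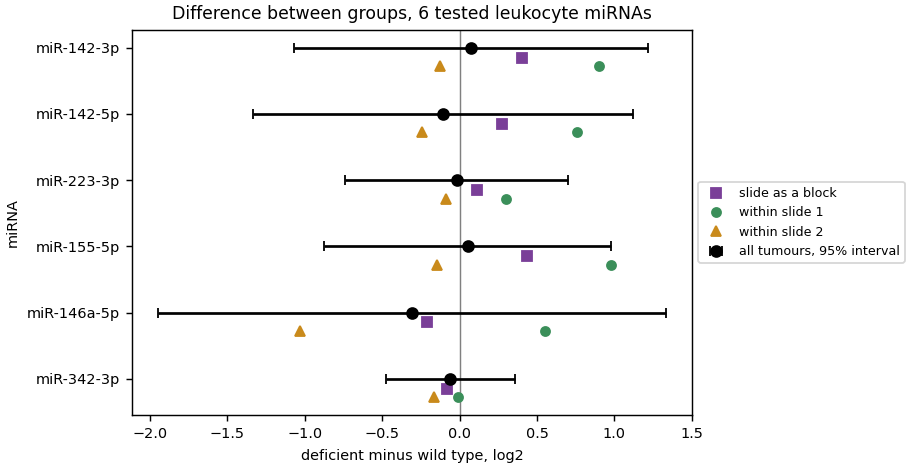
Log2 difference, deficient minus wild type, of the 6 tested forms. Black points with bars are the estimates over all 13 tumours with 95% intervals, and coloured symbols give the difference with slide as a block and within each slide. All 6 intervals include 0, and slide 1 gives more positive differences than slide 2 for each form.

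The myeloid, lymphoid and pan-leukocyte forms were then set against each other within each tumour. Such distances do not separate the kind of leukocyte trace from its amount, since miR-142-3p spanned 10.2-fold and miR-223-3p 3.73-fold. The distance of miR-223-3p from miR-142-3p was lowest in wild-type replicate 5 and deficient replicate 1, −1.79 and −1.63, where miR-142-3p was highest. It was highest, 0.05, in wild-type replicate 2, where miR-142-3p was lowest. The log2 distance of miR-223-3p from miR-142-3p was −0.77 ± 0.53 (SD, n = 7) in deficient and −0.67 ± 0.63 (SD, n = 6) in wild-type tumours. These differed by −0.09 (two-sided exact permutation over 1716 splits, p = 0.772, adjusted p = 0.772 over 3 contrasts). The difference became −0.29 once slide was a block (exact permutation adjusted p = 0.397). The distance of miR-150-5p from miR-142-3p differed by 0.27 between the groups, and that of miR-150-5p from miR-223-3p by 0.37 (exact permutation p of 0.557 and 0.600, adjusted p = 0.772 for both). With slide as a block these were 0.44 and 0.73 (exact permutation adjusted p = 0.397 for both). Both rest on a miR-150-5p value at the floor in 8 of 13 tumours, where the distance follows the other form alone. Within slide 1 the 3 differences were −0.60, −0.28 and 0.32, and within slide 2 they were 0.04, 1.20 and 1.16.

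Most of the leukocyte forms varied together from tumour to tumour. All 15 pairs of the 6 tested forms had a positive Pearson r across the 13 tumours, with a median of 0.68, beside a median of 2.61e-05 over all pairs of tested miRNAs. The 2 miR-142 strands come from 1 hairpin, so their pairs with the same other form are near repeats. Of the 15 pairs, 10 passed an adjusted p of 0.05 by Pearson's r and 10 by Spearman's rho, with 100000 permutations. The share of pairs passing over all tested miRNAs was not computed, so these counts cannot be called particular to the leukocyte forms. Outside these forms, miR-10a-5p and miR-21-5p had r of 0.94 and 0.93 with miR-223-3p, above that of miR-142-3p, 0.88. The closest to miR-142-3p was a leukocyte form, miR-142-5p. miR-142-3p and miR-142-5p had r = 0.98 and rho = 0.92 (permutation adjusted p = 0.00015 for both, resting on the smallest p the permutations can give, 1e-05). miR-142-3p and miR-223-3p had r = 0.88 and rho = 0.92 (permutation adjusted p of 0.00052 and 0.0003). Without the 2 tumours farthest from the median miR-142-3p that r was 0.84, and it was 0.80 within slide 1 and 0.94 within slide 2. miR-142-3p and miR-155-5p had r = 0.79 and rho = 0.77 (permutation adjusted p of 0.0041 and 0.0092), with 0.71 without the 2 farthest tumours, 0.85 within slide 1 and 0.72 within slide 2. miR-223-3p and miR-155-5p had r = 0.68 (permutation adjusted p = 0.019), with 0.48 within slide 1 and 0.84 within slide 2 (permutation adjusted p of 0.36 and 0.11). Over both slides their r was 0.63 without wild-type replicate 5 (permutation adjusted p = 0.053). Without that tumour 7 of the 15 pairs passed.

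miR-146a-5p followed this group less closely. Its r with miR-142-3p was 0.66 and its rho 0.63 (permutation adjusted p of 0.023 and 0.043), but r was 0.49 without the 2 farthest tumours, deficient replicate 1 and wild-type replicate 5 (permutation adjusted p = 0.19). Without deficient replicate 1 alone it was 0.71 (permutation adjusted p = 0.017). It no longer passed when wild-type replicate 5 alone was left out, with r = 0.48 (permutation adjusted p = 0.18), without wild-type replicate 2 alone, with 0.61 (permutation adjusted p = 0.055), and without the 3 tumours with high muscle miRNAs, with 0.65 (permutation adjusted p = 0.064). With miR-223-3p its r was 0.74 and its rho 0.66 (permutation adjusted p of 0.0096 and 0.038), with 0.92 within slide 1 and 0.55 within slide 2. With the other inducible form, miR-155-5p, its r was 0.39 and its rho 0.22 (permutation adjusted p of 0.25 and 0.59).

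miR-342-3p stood apart from the miR-142 strands, miR-223-3p and miR-155-5p, with r of 0.32, 0.37, 0.38 and 0.13 (permutation adjusted p of 0.31, 0.25, 0.25 and 0.68). Without scaling between arrays the first 3 were 0.68, 0.67 and 0.79 and passed (permutation adjusted p of 0.013, 0.014 and 0.002). With miR-146a-5p its r was 0.79 and its rho 0.62 (permutation adjusted p of 0.0041 and 0.043). That r was 0.65 without the 2 farthest tumours (permutation adjusted p = 0.057), 0.70 within slide 1 and 0.91 within slide 2. Within single slides of 7 and 6 tumours, 2 and 1 of the 15 pairs passed, whereas 10 passed when slide means were removed.

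**Figure D3:**
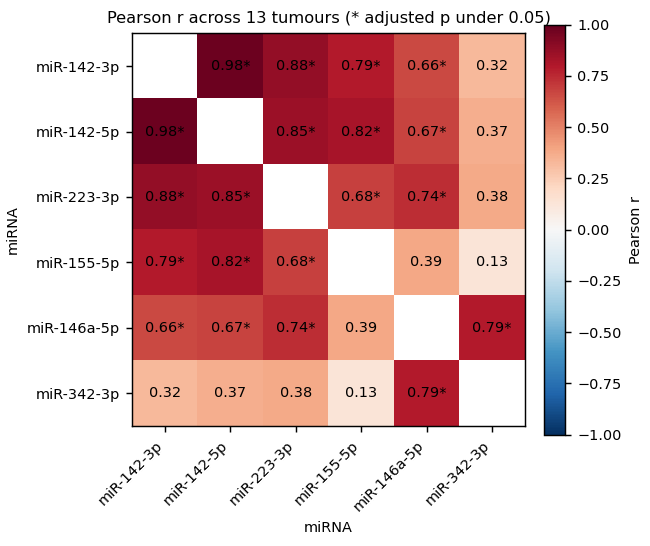
Pearson r across the 13 tumours for each pair of the 6 tested forms, with an asterisk at an adjusted p under 0.05. The miR-142 strands, miR-223-3p and miR-155-5p form a block with r from 0.68 to 0.98, and miR-342-3p is correlated past the threshold with miR-146a-5p alone.

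**Figure D4:**
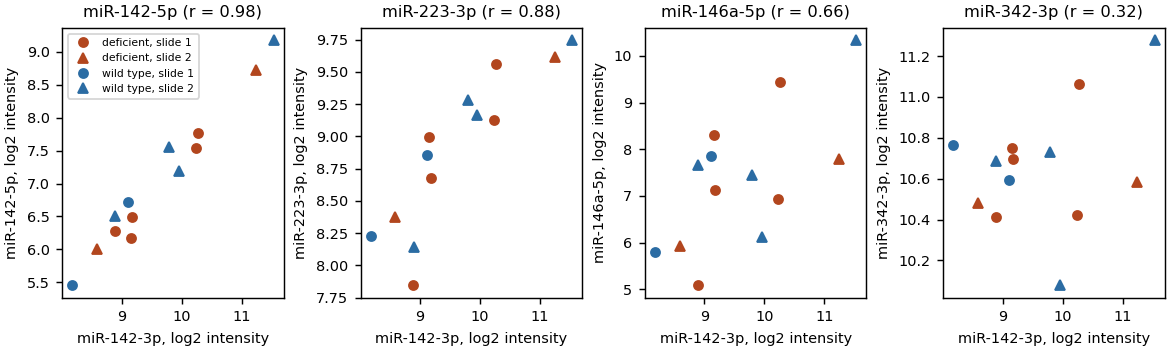
Log2 level of miR-142-5p, miR-223-3p, miR-146a-5p and miR-342-3p against that of miR-142-3p, 1 symbol per tumour, coloured by group and shaped by slide. The points of miR-142-5p lie on a line (r = 0.98), those of miR-223-3p near one (r = 0.88), and those of miR-342-3p scatter (r = 0.32), and both groups run along the whole range.

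The tumours themselves can be ordered by these forms. Wild-type replicate 5 was above the mean of all tumours for 6 of 6 tested forms, on average by 1.57 on the log2 scale, and wild-type replicate 4 for 6 of 6 by 0.43. Deficient replicates 1 and 6 were above it for 5 of 6, by 0.89 and 0.73. At the other end, wild-type replicate 2 was below for 5 of 6, with a mean deviation of −1.11, and deficient replicates 2 and 4 were below for 6 of 6, with −0.92 and −0.75. All 8 forms were detected in deficient replicates 1 and 5 and wild-type replicates 4 and 5, and only 4 in wild-type replicate 2. High and low tumours thus occurred in both groups. Wild-type replicate 2 also had the fewest detected miRNAs of any kind, 338, and the part of this in the result was not tested.

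**Figure D5:**
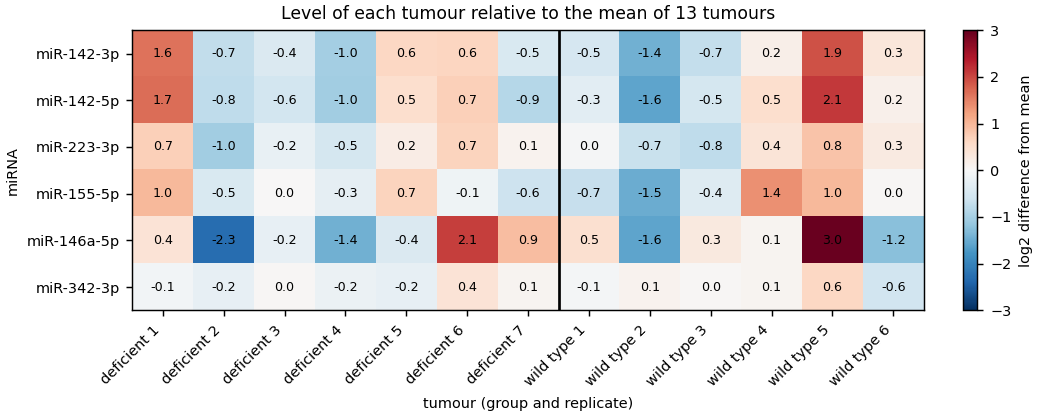
Log2 level of each tumour relative to the mean of the 13 tumours for the 6 tested forms, with the 7 deficient tumours left of the line and the 6 wild-type tumours right of it. Red columns, such as deficient 1 and wild type 5, and blue columns, such as deficient 2 and 4 and wild type 2, occur on both sides.

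Opposite strands and further miRNAs of leukocytes were looked at next. Of the 6 opposite strands, 5 were detected in 0 tumours, those of miR-223-3p, miR-150-5p, miR-155-5p, miR-146a-5p and miR-146b-5p. miR-342-5p was detected in 6 of 7 deficient and 6 of 6 wild-type tumours and differed by −0.07 (SE 0.29, limma adjusted p = 0.97). Its signal came from a single probe of its 4, which alone differed by −0.16, since the others were at the floor in all 13 tumours. miR-511-3p, made from an intron of the macrophage mannose receptor gene Mrc1, was detected in 1 of 7 deficient and 2 of 6 wild-type tumours. Where detected, its intensity was 52.0 in deficient replicate 1, against 39.1 and 32.4 in wild-type replicates 4 and 6. miR-511-5p, from the same hairpin, and miR-147-3p, which is induced in activated macrophages, were detected in 0 tumours. Of the 4 tested miRNAs that are also made outside leukocytes, 0 passed: miR-21-5p differed by −0.17, miR-181a-5p by 0.01, miR-181b-5p by −0.04 and miR-181d-5p by 0.09 (limma adjusted p of 0.895, 0.995, 0.97 and 0.891).

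Markers of other cells were set beside the 3 leading forms, 15 relations in all. The endothelial pair miR-126-3p and miR-126-5p, made in vessel walls, followed miR-223-3p with r = 0.78 and rho = 0.64 (permutation adjusted p of 0.019 and 0.079), the only relation that passed by r. That r was 0.62 without the 2 farthest tumours, 0.88 within slide 1 and 0.75 within slide 2. The 5 fibroblast and smooth muscle miRNAs gave r = 0.70 and rho = 0.70 with miR-223-3p (permutation adjusted p of 0.058 and 0.079). The summed scaled intensity of the endothelial pair, most of it from miR-126-3p, ran from 1110 to 4494 in deficient and from 1522 to 2850 in wild-type tumours. That of the 5 stroma miRNAs ran from 825 to 2218 in deficient and from 994 to 2641 in wild-type tumours. Of these 7, 0 passed between the groups. The 3 tested erythroid miRNAs, made in red cell precursors and carried in blood, gave r = 0.40 with both miR-142-3p and miR-223-3p (rho of 0.36 and 0.23, permutation adjusted p of 0.26 for both r, and of 0.31 and 0.49 for rho). Without the 2 farthest tumours these r were 0.06 and 0.0014. The r use the mean log2 level of the 3 tested. The summed intensity of all 4 erythroid miRNAs on the array ran from 19994 to 83810 in deficient and from 4994 to 69281 in wild-type tumours. Nearly all of this sum was miR-451, at 19345 to 81932 in deficient and 4859 to 67898.5 in wild-type tumours. The neuroblast and muscle lists had a negative r with each of the 3 leading forms, and 0 of these 6 relations passed. For the 5 neuroblast miRNAs r was −0.39 with miR-142-3p, −0.40 with miR-223-3p and −0.33 with miR-150-5p, and rho was −0.53, −0.54 and −0.53 (permutation adjusted p of 0.26, 0.26 and 0.34 for r, and of 0.11 for each rho). Without the 2 farthest tumours these r were −0.75, −0.65 and −0.79, for which no p was computed. Within slide 1 they were −0.25, −0.14 and −0.01, and within slide 2 −0.51, −0.69 and −0.56. For the 4 muscle miRNAs r was −0.44 with miR-142-3p, −0.24 with miR-223-3p and −0.49 with miR-150-5p, and rho was −0.41, −0.29 and −0.62 (permutation adjusted p of 0.26, 0.45 and 0.19 for r, and of 0.26, 0.39 and 0.081 for rho). The summed intensity of the neuroblast list ran from 3182 to 7873 in deficient and from 4396 to 9740 in wild-type tumours, and that of the muscle list from 88.7 to 8994 in deficient and from 163 to 3588 in wild-type tumours. The part of vessels, stroma, blood, tumour cells and muscle in the leukocyte levels was not tested.

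The miRNAs most like each leading form were named by Pearson r over the 13 tumours, as a description. miR-142-3p was followed most closely by its own strand miR-142-5p, then by miR-425-5p (r = 0.89), miR-26b-5p (0.88), miR-223-3p (0.88) and miR-10a-5p (0.82). miR-223-3p was followed by miR-10a-5p (0.94), miR-21-5p (0.93), miR-142-3p (0.88), miR-221-3p (0.88) and miR-26b-5p (0.87). miR-150-5p, with 8 values at the floor, was followed by miR-142-3p (0.88), miR-142-5p (0.87), miR-532-3p (0.79), miR-378b (0.77) and let-7i-5p (0.77). Of these, miR-532-3p was itself detected in only 6 of the 13 tumours and had an SD of 0.13. All points share the array and its scaling. The r of miR-142-3p with the array's log2 75th percentile was 0.35 and with the number of detected miRNAs 0.47, and for miR-223-3p these were 0.46 and 0.54. They were 0.34 and 0.65 for miR-155-5p, 0.30 and 0.47 for miR-142-5p, and 0.16 and 0.16 for miR-146a-5p. For miR-342-3p they were −0.30 and −0.22. The part of these array measures in the correlations was not tested.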

How the data were processed

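Per the file headers, the deposited scanner files gave each spot's intensity after background subtraction and detrending by Agilent Feature Extraction 10.7.3.1, linear and not scaled between arrays. The submitters' processing notes name version 10.5.1.1. Detection and outlier marks, deposited in the same files, are other, yes or no information. The log2 values of the deposited series matrix have 1 distribution on every array. How the authors reached it is not stated in these sources, and the matrix was used as an alternative only.

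Each array had 47604 spots, of which 2164 controls were left out, and 0 spots were saturated. Spots without outlier marks were averaged per probe (2 probes of 20 spots for each leukocyte form) and probes were summed per miRNA. The scaling factor of an array was its 75th percentile among 294 mouse miRNAs that every array detected. Values under 17.2, percentile 1 of the detected ones, were set to that floor before log2 was taken. Groups were compared with limma 3.58.1 in R 4.3.3 over all 419 tested miRNAs, two-sided, with Benjamini-Hochberg adjustment. In 20 simulations of this comparison with 419 miRNAs, 48.1% of changes of 1 and 87.9% of changes of 2 on the log2 scale were recovered. The changes were placed in miRNAs drawn at random from all 419, with noise drawn independently for each miRNA. The 6 tested forms varied more, with a median SD of 0.90 beside 0.53 over all tested miRNAs, and together. These shares therefore do not give the recovery for the 6 forms. Contrasts used exact permutation, with 315 splits where slide was a block, and correlations 100000 permutations in Python 3.11.15 with numpy 2.4.6. With these 13 arrays the median half-width of the 95% interval was 1.03 for the 6 tested forms and 0.63 over all tested miRNAs (log2). The small number of arrays limits precision. The labels call the tumours biological replicates. Slides were read from array barcodes.

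Named were the 8 forms, their opposite strands, 7 further leukocyte miRNAs, cell type lists and, for 3 forms, the 5 miRNAs with the highest r. Members and lists were chosen with earlier results of these data known. Alternatives covered scaling, background, probe summary, filter, floor, slide, replicate number, series matrix and each tumour left out. Leaving out the 3 tumours with high muscle miRNAs was chosen after seeing the data. RefSeq tables of GRCm38.p6 gave sequences, positions and neighbouring genes.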

Additional observations from a re-analysis of the deposited data

Results flagged for a closer look

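Of 18 sets of values examined for a tumour far from its group, 1 stood apart, and chance flags about 1 in 20. The log2 distance of miR-150-5p from miR-223-3p was −2.07 in wild-type replicate 5, while the next highest wild-type tumour was at −4.04, a gap of 0.658 of the group's range against a limit of 0.625. miR-150-5p was at the floor in 4 of the 6 wild-type tumours.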

How the results depend on the processing

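The counts of miRNAs past the threshold, over all tested miRNAs and over the leukocyte forms, were 0 by limma under all 26 alternatives. The group differences (deficient minus wild type, log2) were small beside their errors, so their signs turned easily. Those that turned sign were 0.0267 for miR-223-3p with the percentile taken over all mouse miRNAs, and 0.0882, 0.175 and 0.135 for miR-142-5p, miR-223-3p and miR-342-3p without scaling. They were also −0.00488 for miR-142-3p after quantile normalization, 0.0246 for miR-223-3p after normexp correction, and −0.0948 and −0.134 for miR-155-5p with probes averaged as log2 values and with 4 times the floor. With slide as a block miR-142-5p gave 0.276 and miR-223-3p 0.111. Within slide 1 miR-142-5p gave 0.761, miR-223-3p 0.297, miR-146a-5p 0.552 and the distance of miR-150-5p from miR-142-3p −0.279. Within slide 2 miR-142-3p gave −0.127, miR-155-5p −0.147 and the distance of miR-223-3p from miR-142-3p 0.0393. Without the 3 tumours with high muscle miRNAs miR-142-5p gave 0.119, miR-223-3p 0.116, miR-155-5p −0.0177 and miR-146a-5p 0.0369. With the replicate number as a block (replicate block) miR-142-5p turned to 0.0310, and the others kept their sign: 0.155 for miR-142-3p, −0.0366 for miR-223-3p, 0.160 for miR-155-5p, −0.485 for miR-146a-5p and −0.0791 for miR-342-3p. The labels state no pairing by number. Same-numbered tumours had r from −0.22 to 0.19, and 1 of 6 was most like its own number, which cannot show that no pairing exists. Leaving out each tumour in turn gave −0.207 to 0.463 for miR-142-3p, −0.435 to 0.309 for miR-142-5p, −0.171 to 0.155 for miR-223-3p, −0.238 to 0.334 for miR-155-5p, −0.676 to 0.252 for miR-146a-5p and −0.181 to 0.0584 for miR-342-3p. It gave −0.314 to 0.0533 for miR-223-3p minus miR-142-3p, 0.00547 to 0.458 for miR-150-5p minus miR-142-3p and −0.0467 to 0.772 for miR-150-5p minus miR-223-3p. Of the 15 pairs, 2 passed within slide 1 and 1 within slide 2, where fewer tumours enter, 7 to 10 with 1 tumour left out and 13 without scaling. The cause of the other shifts was not tested. miR-150-5p and miR-146b-5p were at the floor in 8 and 9 of 13 tumours, so that only bounds are known there.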
